A study of Rattus norvegicus with 12 samples.

Results

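The genes described here make DNA ready for copying, copy it, and pull the copies apart. They are 44 genes of S phase and mitosis, read in rat pancreatic islets, and were taken by symbol from a table of 30309 transcripts under 25888 gene symbols. Of these, 15 serve DNA replication and 29 serve mitosis. All 44 were found, and all 44 passed the filter on low counts. A single transcript was listed for 43 of them, and for Foxm1, which had several, the transcript with the highest mean count was used.

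Islets from the pancreas of Sprague Dawley rats were compared in 4 groups with 3 libraries each. The groups were IUGR at 10 weeks, control at 10 weeks, IUGR at 2 weeks and control at 2 weeks of age. IUGR stands for intrauterine growth retardation, brought about by tying both uterine arteries of the pregnant dam at embryonic day 18. Control litters were reduced to 8 pups. The islets had been freed with collagenase and collected on a Histopaque gradient, and RNA depleted of ribosomal RNA was sequenced. The labels do not say how many animals or litters entered a library or what their sex was, so p-values measure the spread between libraries, which may in part be technical.

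A cell that divides first loads the MCM helicase onto its DNA with the help of Cdc6. E2F factors and cyclin E then drive it into S phase, where the PCNA clamp and enzymes that make nucleotides take part in copying. Later, cyclin A and cyclin B with Cdk1 open mitosis, motors and crosslinkers build the spindle, the kinetochore joins chromosomes to it, and the anaphase promoting complex ends the phase. Many of these genes are held down in resting cells by RB family proteins and the DREAM complex, which reach S phase genes through E2F sites and mitosis genes through an element called CHR, often beside CCAAT boxes. In rodent islets, beta cells divide often in the first weeks of life and rarely in adults.

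Promoters of 32 of the 44 genes were found among 33469 promoters of RefSeq on build GRCr8, each reaching from 250 bases before to 50 bases after the start of the gene. The motifs searched on both strands were CHR (read as TTTGAA and also as TTCGAA), the CCAAT box by those letters, and an E2F site. The E2F site had 4 spellings, which were TTCCCGC with the variant TTCGCGC, and then TTGCCGC with the variant TTGGCGC. Below are the 150 bases before the start of 4 mitosis and 2 replication genes, written 5′ to 3′ along the gene's own strand with the motifs in capitals. They are shown because they hold motifs of their class and the levels of their genes are described below. They lie at chr1:199952594-199952743 on the minus strand for Mki67, chr20:19265143-19265292 on the plus strand for Cdk1, chr8:79981659-79981808 on the minus strand for Ccnb2, chr5:137255800-137255949 on the minus strand for Cdc20, chr19:13488663-13488812 on the plus strand for Mcm5 and chr13:42404353-42404502 on the minus strand for Mcm6.
Mki67: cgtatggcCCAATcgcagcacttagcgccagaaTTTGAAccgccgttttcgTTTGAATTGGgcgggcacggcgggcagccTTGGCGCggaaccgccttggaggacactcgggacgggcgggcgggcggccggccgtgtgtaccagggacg
Cdk1: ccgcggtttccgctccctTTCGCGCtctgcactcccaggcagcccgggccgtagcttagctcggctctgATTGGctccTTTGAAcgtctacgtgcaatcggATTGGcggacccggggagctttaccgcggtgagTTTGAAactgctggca
Ccnb2: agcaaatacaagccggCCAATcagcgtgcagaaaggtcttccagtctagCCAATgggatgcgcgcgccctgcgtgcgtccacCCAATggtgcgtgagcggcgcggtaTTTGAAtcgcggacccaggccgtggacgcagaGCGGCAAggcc
Cdc20: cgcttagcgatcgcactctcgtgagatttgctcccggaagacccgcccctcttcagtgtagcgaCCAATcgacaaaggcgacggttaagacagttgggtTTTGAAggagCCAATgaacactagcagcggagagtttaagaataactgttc
Mcm5: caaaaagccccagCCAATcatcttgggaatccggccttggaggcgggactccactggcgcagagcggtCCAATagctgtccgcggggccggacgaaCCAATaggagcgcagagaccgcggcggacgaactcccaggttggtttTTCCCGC
Mcm6: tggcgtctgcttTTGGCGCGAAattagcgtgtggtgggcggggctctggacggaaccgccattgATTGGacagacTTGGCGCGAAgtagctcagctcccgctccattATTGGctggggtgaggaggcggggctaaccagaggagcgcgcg

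In Mki67 a CHR match and a CCAAT match on the other strand share a base, and in Mcm6 matches of the E2F site on both strands overlap. A CHR match was present in 15 of 23 mitosis promoters (65.2%) and in 2 of 9 replication promoters (22.2%), beside 19.7% of all promoters. The order was the other way round for the E2F site, which was found in 6 of 9 replication promoters (66.7%) and 4 of 23 mitosis promoters (17.4%), beside 9.52% of all promoters. The CCAAT box was present in 18 of 23 mitosis promoters (78.3%) and 5 of 9 replication promoters (55.6%), beside 37.5% of all. In a window from 150 bases before to 50 after the start, a CHR match was left in 65.2% of the mitosis promoters, in 0 of 9 replication promoters and in 12.3% of all. These are matches of letters, given as a description with no test.

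Levels are given as scaled CPM, that is CPM (counts set relative to the size of the library) with library sizes corrected by TMM factors. These factors were 1.16 to 1.18 in 10-week IUGR and 0.492, 1.07 and 0.44 in 10-week control libraries. At 2 weeks they were 1.36 to 1.4 in IUGR and 0.771, 1.15 and 1.15 in control libraries. Without scaling, the 44 genes took 0.0481% to 0.0519% of counts in 10-week IUGR and 0.015% to 0.0674% in 10-week control libraries. At 2 weeks they took 0.148% to 0.163% in IUGR and 0.0928% to 0.122% in control libraries. The IUGR comparisons therefore rest on this scaling. Library totals were between 30.4 M and 64.2 M counts (M, mega). The lowest count of any of the 44 genes was 9, for E2f8 in the third 10-week control library. Acinar genes, which mark the exocrine pancreas around the islets, took 0.624% to 2.32% of counts in 10-week IUGR libraries, 13.9% to 46.9% in 10-week control libraries, 4.38% to 9.38% in 2-week IUGR libraries and 21.7% to 42.3% in 2-week control libraries. Acinar share and group therefore moved together, and their part in the IUGR comparisons was not tested beyond the fit with the acinar level as a covariate given below.

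The second 10-week control library stood apart from the others of its group. It was the highest of the 3 in 43 of 44 genes, E2f1 being the exception, whereas it was the highest for 36.8% of all transcripts tested. Over the 44 genes its level was a median 1.99 times the mean of the other libraries, and the ratio ran from 0.886 for E2f1 to 4.52 for Birc5. Its acinar share was 13.9%, against 43% and 46.9% in the other 10-week control libraries. Its 5 B cell markers summed to 59.3 scaled CPM, against 2 and 2.15, and its 8 T cell markers to 52.3, against 10.4 and 20.1. In the 10-week IUGR group replicate 2 also had the highest B cell sum, 40.4 against 10.1 and 15.1, and its level of the 44 genes was a median 0.996 times that of the other libraries. The part of other cells in the levels of this control library was not tested. Results that rest on it are given with and without it.

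**Figure D1:**
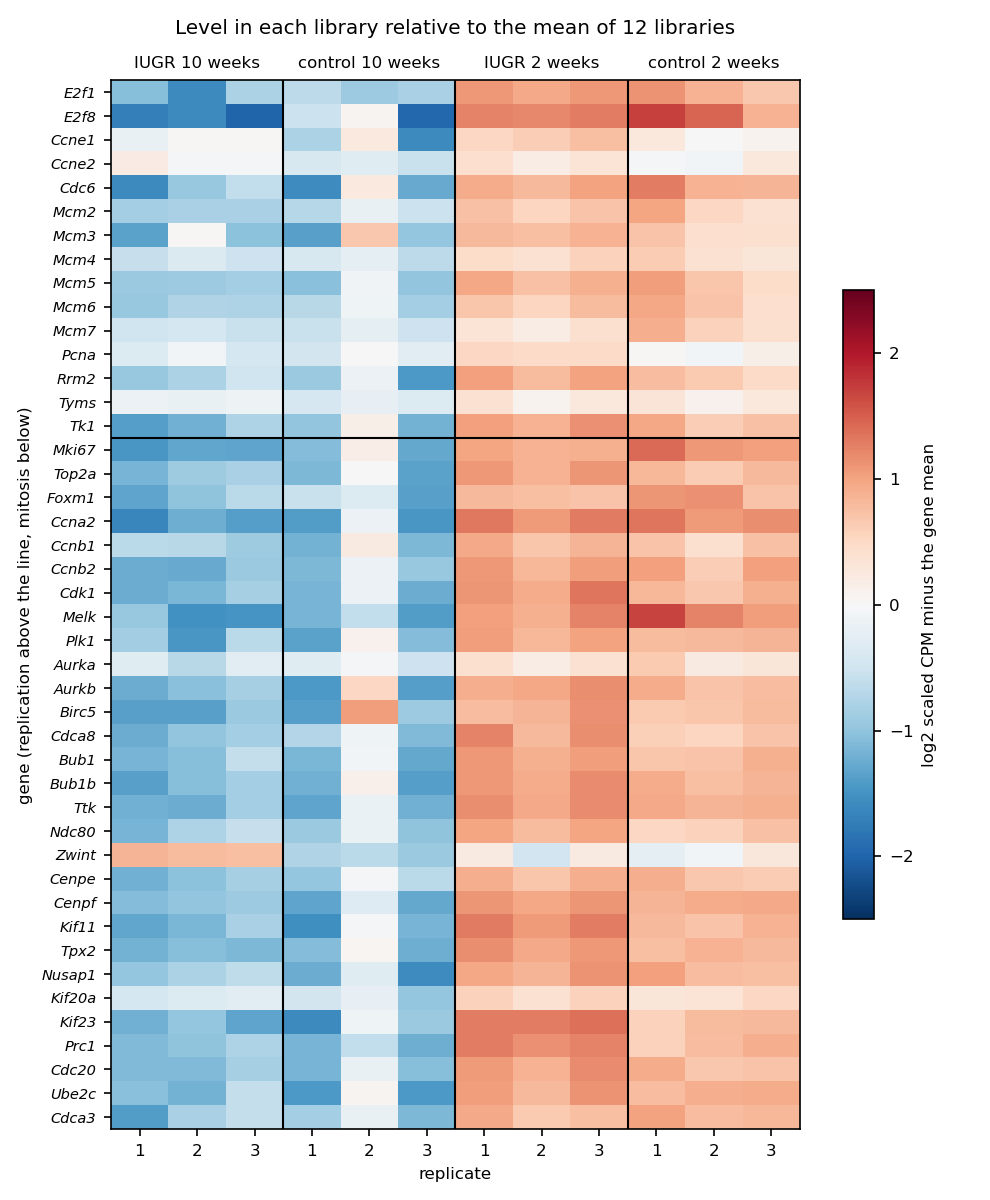
Log2 scaled CPM of each of the 44 genes (rows) in each of the 12 libraries (columns) minus the gene's mean over all libraries (colour), with 10-week libraries left of 2-week libraries and IUGR left of control. Nearly all genes are low at 10 weeks and high at 2 weeks, Zwint is high in the 10-week IUGR libraries, and replicate 2 of the 10-week control group is above its group in 43 of 44 genes.

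The 15 replication genes together summed to 151, 171 and 154 scaled CPM in 10-week IUGR libraries, 148, 210 and 148 in 10-week control libraries, 340, 312 and 345 in 2-week IUGR libraries and 353, 293 and 283 in 2-week control libraries. The 29 mitosis genes summed to 256, 269 and 282 scaled CPM in 10-week IUGR libraries, 211, 417 and 193 in 10-week control libraries, 846, 744 and 835 in 2-week IUGR libraries and 851, 750 and 777 in 2-week control libraries. Every 10-week library lay below every 2-week library in both sums. Such sums weigh long and abundant transcripts most. Without Zwint, the remaining 28 mitosis genes summed to 169, 185 and 199 in 10-week IUGR libraries and 182, 387 and 167 in 10-week control libraries. The mitosis sum was 1.57 to 1.84 times the replication sum in 10-week IUGR libraries and 1.3 to 1.98 times in 10-week control libraries. At 2 weeks it was 2.39 to 2.49 times in IUGR and 2.41 to 2.74 times in control libraries.

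**Figure D2:**
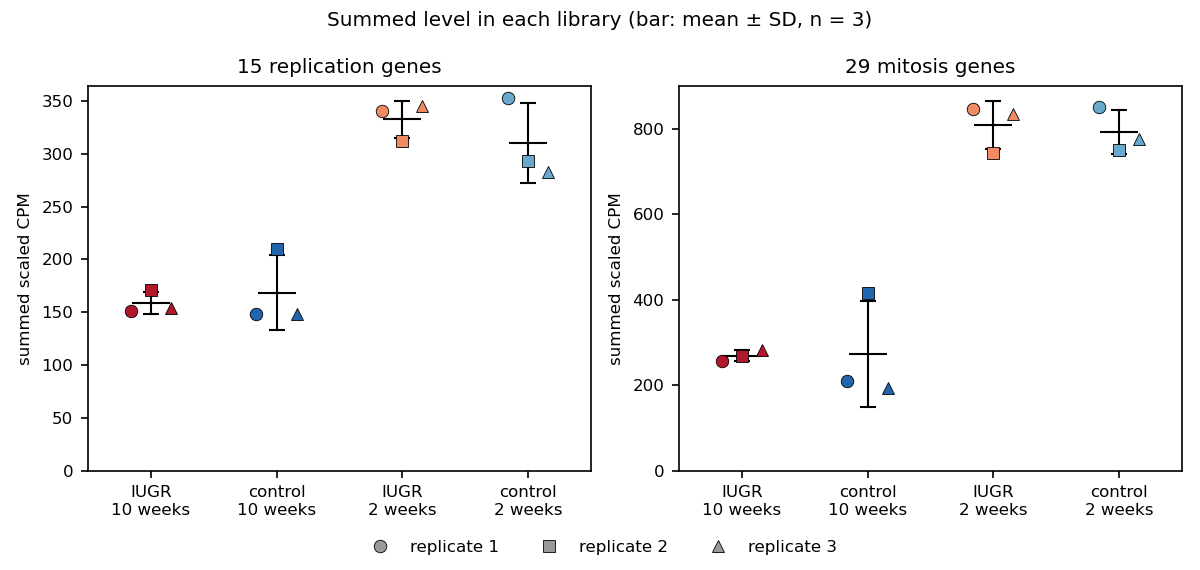
Summed scaled CPM of the 15 replication genes and of the 29 mitosis genes, 1 point per library with bars for the group mean and SD (n = 3). The 10-week groups sit left and low, at 158 ± 11.1 (IUGR) and 169 ± 35.8 (control) for replication and 269 ± 12.8 (IUGR) and 274 ± 125 (control) for mitosis, and the 2-week groups sit high.

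Between 10 and 2 weeks of age, most of these genes fell in both groups. In IUGR islets 41 of 44 passed as lower at 10 weeks and 1, Zwint, as higher, at an adjusted p under 0.05, while Ccne1 and Ccne2 did not pass. The test was edgeR's quasi-likelihood test with Benjamini-Hochberg adjustment over 20733 transcripts, of which 29.2% passed as lower and 27.3% as higher (56.5% in either direction). Of the replication genes 13 of 15 fell, with a median log2 fold change of -1.49 over the class, and of the mitosis genes 28 of 29 fell, with a median of -2.04. The median over all transcripts tested was 0.00. In control islets 40 of 44 passed as lower and 0 as higher, beside 15.1% and 17.2% of all transcripts, and Ccne1, Mcm3, Pcna and Birc5 did not pass. There 12 of 15 replication genes fell (class median -1.11) and 28 of 29 mitosis genes fell (class median -1.48).

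Without the second 10-week control library, all 44 passed as lower in control islets, beside 3229 of 20998 transcripts. The class medians were -1.48 for replication and -1.96 for mitosis. With that library as the only 10-week control, the medians were -0.76 and -0.84. That fit has no spread within the 10-week control group, so its count of passing genes is not used here. In whole islets, fewer dividing cells and less RNA per cell cannot be told apart. At 10 weeks the 3 libraries lay below all 3 of 2 weeks for 42 genes in IUGR (35.5% of all transcripts did so) and for 40 genes in controls (20.5%). They lay above for 1 gene in IUGR, Zwint, beside 33.9% of all transcripts.

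**Figure D3:**
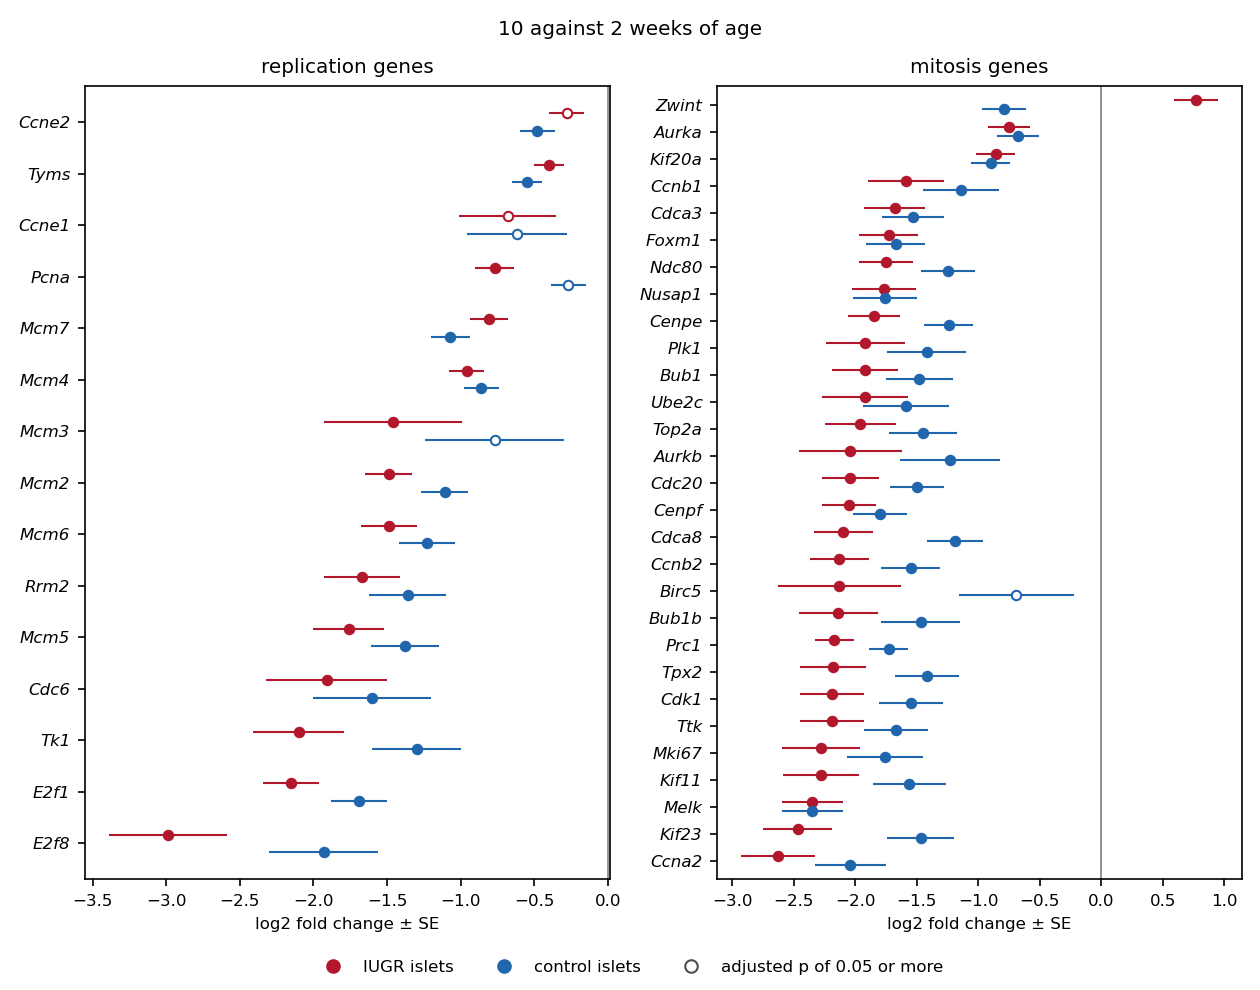
Log2 fold change of each gene at 10 against 2 weeks, in IUGR and in control islets, with its standard error, replication and mitosis genes apart and open points for genes that did not pass. All values but that of Zwint in IUGR islets are below 0, with E2f8 lowest in IUGR islets at -2.99 and Melk lowest in controls at -2.35.

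Regulators of entry into S phase included the largest decrease in IUGR islets and also the smallest changes. E2f8, an atypical E2F that represses E2F targets (ENSRNOT00000035512), had 0.39, 0.423 and 0.321 scaled CPM in 10-week IUGR libraries, 0.887, 1.34 and 0.329 in 10-week control libraries, 3.02, 2.95 and 3.12 in 2-week IUGR libraries and 4.18, 3.52 and 2.35 in 2-week control libraries. Its log2 fold change at 10 against 2 weeks, given with its standard error here and below, was -2.99 ± 0.40 (adjusted p = 0.000107) in IUGR islets and -1.93 ± 0.37 (adjusted p = 0.00325) in control islets. The ages did not overlap in either group, although the 10-week control libraries differed widely among themselves. E2f1, an activator of S phase genes (ENSRNOT00000022428), had 2.25, 1.57 and 2.74 scaled CPM in 10-week IUGR libraries, 3.01, 2.52 and 2.67 in 10-week control libraries, 9.92, 9.14 and 10 in 2-week IUGR libraries and 10.3, 8.66 and 7.51 in 2-week control libraries. It changed by -2.15 ± 0.19 (adjusted p = 9.35e-06) in IUGR islets and -1.69 ± 0.19 (adjusted p = 0.000224) in controls, and it was the only one of the 44 genes that the second 10-week control library did not have highest. Cdc6, which loads the helicase (ENSRNOT00000038228), had 0.724, 1.12 and 1.41 scaled CPM in 10-week IUGR libraries, 0.729, 2.59 and 0.913 in 10-week control libraries, 4.11, 3.83 and 4.38 in 2-week IUGR libraries and 5.27, 3.97 and 3.92 in 2-week control libraries. Its change was -1.91 ± 0.41 (adjusted p = 0.00207) in IUGR islets and -1.60 ± 0.40 (adjusted p = 0.0119) in controls.

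The cyclin E genes moved least within this step of the cycle. Ccne2, which activates Cdk2 at the start of S phase (ENSRNOT00000010696), had 11.9, 10.1 and 9.98 scaled CPM in 10-week IUGR libraries, 7.86, 8.42 and 7.08 in 10-week control libraries, 13.9, 11.7 and 13.2 in 2-week IUGR libraries and 10.2, 9.86 and 12.5 in 2-week control libraries. The ages overlapped in IUGR islets, where its change was -0.28 ± 0.12 (adjusted p = 0.0663), and lay apart in controls, where it was -0.48 ± 0.12 (adjusted p = 0.0136). Ccne1 did not pass in either group, at -0.68 ± 0.33 (adjusted p = 0.0978) in IUGR islets and -0.62 ± 0.34 (adjusted p = 0.177) in controls.

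All 6 subunits of the MCM helicase, which unwinds DNA ahead of the fork, passed as lower in IUGR islets, from -0.81 for Mcm7 to -1.76 for Mcm5. In controls 5 of 6 did, and Mcm3 did not, at -0.77 ± 0.47 (adjusted p = 0.221). Mcm3 (ENSRNOT00000017081) had 4.87, 12.5 and 6.05 scaled CPM in 10-week IUGR libraries, 4.82, 19.6 and 6.32 in 10-week control libraries, 21.4, 20.7 and 22.3 in 2-week IUGR libraries and 20.2, 16.5 and 16.3 in 2-week control libraries, and replicate 2 was the highest of both 10-week groups. Mcm5 (ENSRNOT00000064731) had 5.04, 5.11 and 5.29 scaled CPM in 10-week IUGR libraries, 4.66, 9 and 4.82 in 10-week control libraries, 18.7, 15.8 and 17.7 in 2-week IUGR libraries and 19.8, 15.4 and 13.2 in 2-week control libraries. Mcm2 (ENSRNOT00000022231) had 13.1, 13.3 and 13.4 scaled CPM in 10-week IUGR libraries, 14.4, 20.5 and 16.2 in 10-week control libraries, 39.2, 34.2 and 38.6 in 2-week IUGR libraries and 46.4, 33.8 and 30.6 in 2-week control libraries. For both, every 10-week library was below every 2-week library, including the second control library. Mcm5 changed by -1.76 ± 0.24 (adjusted p = 0.000109) in IUGR islets and -1.38 ± 0.23 (adjusted p = 0.00171) in controls. Mcm2 changed by -1.49 ± 0.16 (adjusted p = 3.04e-05) in IUGR islets and -1.11 ± 0.16 (adjusted p = 0.000756) in controls. Mcm6 (ENSRNOT00000004969), whose promoter holds the overlapping E2F matches, had 10.2, 11.6 and 11.4 scaled CPM in 10-week IUGR libraries, 12.1, 18.2 and 10.9 in 10-week control libraries, 31.6, 28.3 and 33.7 in 2-week IUGR libraries and 38.5, 32 and 26.3 in 2-week control libraries. Its ages lay apart in both groups, with changes of -1.49 ± 0.19 (adjusted p = 7.8e-05) in IUGR islets and -1.23 ± 0.19 (adjusted p = 0.000998) in controls.

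Among genes of nucleotide supply and the clamp, Tk1 and Rrm2 fell furthest in IUGR islets and Tyms and Pcna least. Rrm2, the regulated subunit of ribonucleotide reductase (ENSRNOT00000037387), had 3.26, 3.64 and 4.47 scaled CPM in 10-week IUGR libraries, 3.3, 5.71 and 2.34 in 10-week control libraries, 12.8, 10.9 and 12.6 in 2-week IUGR libraries and 10.7, 9.97 and 8.81 in 2-week control libraries. Tk1, which salvages thymidine (ENSRNOT00000071420), had 1.48, 1.67 and 2.25 scaled CPM in 10-week IUGR libraries, 1.93, 4.23 and 1.68 in 10-week control libraries, 7.81, 6.94 and 8.42 in 2-week IUGR libraries and 7.47, 5.85 and 6.34 in 2-week control libraries. In both genes the ages lay apart. Rrm2 changed by -1.67 ± 0.26 (adjusted p = 0.000269) in IUGR islets and -1.36 ± 0.26 (adjusted p = 0.00303) in controls. Tk1 changed by -2.10 ± 0.31 (adjusted p = 0.00019) in IUGR islets and -1.30 ± 0.30 (adjusted p = 0.00801) in controls. Tyms, which makes thymidylate, had smaller changes of -0.40 ± 0.10 (adjusted p = 0.00433) in IUGR islets and -0.55 ± 0.10 (adjusted p = 0.00201) in controls. Pcna, the sliding clamp (ENSRNOT00000028887), which also serves DNA repair, had 36.8, 44.4 and 34.4 scaled CPM in 10-week IUGR libraries, 33.8, 46.5 and 38.8 in 10-week control libraries, 67.3, 65.5 and 65.1 in 2-week IUGR libraries and 47.8, 44.5 and 51.6 in 2-week control libraries. Its ages lay apart in IUGR islets, with -0.77 ± 0.13 (adjusted p = 0.000358), and overlapped in controls, with -0.27 ± 0.12 (adjusted p = 0.115).

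Mki67 and Top2a act on mitotic chromosomes, the first as Ki-67, a protein of the chromosome surface widely used to count dividing cells, the second as the topoisomerase that untangles DNA. Mki67 (ENSRNOT00000038176) had 52.7, 58.3 and 57.8 scaled CPM in 10-week IUGR libraries, 68.1, 162 and 59.3 in 10-week control libraries, 287, 265 and 268 in 2-week IUGR libraries and 384, 304 and 293 in 2-week control libraries. Top2a (ENSRNOT00000050725) had 19.4, 23.4 and 24.5 scaled CPM in 10-week IUGR libraries, 19.8, 43.3 and 17.1 in 10-week control libraries, 91, 78.9 and 92.2 in 2-week IUGR libraries and 77, 67 and 75.4 in 2-week control libraries. The second 10-week control library had more of both than the other 10-week libraries, yet less than every 2-week library. Mki67 changed by -2.28 ± 0.32 (adjusted p = 0.000136) in IUGR islets and -1.76 ± 0.31 (adjusted p = 0.00205) in controls. Top2a changed by -1.96 ± 0.29 (adjusted p = 0.000186) in IUGR islets and -1.45 ± 0.28 (adjusted p = 0.00337) in controls.

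The kinase Cdk1 and its cyclins, which bring cells into mitosis, passed as lower in both groups. Ccna2, the A-type cyclin of S phase and early mitosis (ENSRNOT00000021156), had 1.78, 2.39 and 2.13 scaled CPM in 10-week IUGR libraries, 2.09, 4.98 and 2.01 in 10-week control libraries, 13.8, 11.6 and 13.7 in 2-week IUGR libraries and 13.9, 11.5 and 12.4 in 2-week control libraries. Cdk1 (ENSRNOT00000000783) had 3.4, 3.66 and 4.5 scaled CPM in 10-week IUGR libraries, 3.58, 7.29 and 3.4 in 10-week control libraries, 17.2, 15.3 and 20.3 in 2-week IUGR libraries and 14.3, 12.9 and 14.9 in 2-week control libraries. Ccnb1, the B-type cyclin (ENSRNOT00000025297), had 3.95, 3.91 and 3.43 scaled CPM in 10-week IUGR libraries, 2.79, 7.43 and 2.92 in 10-week control libraries, 12.3, 10.3 and 11.5 in 2-week IUGR libraries and 10.4, 8.33 and 10.5 in 2-week control libraries. The highest 10-week value of all 3 genes was again that of the second control library. Ccna2 had the largest change of the mitosis genes in IUGR islets, -2.63 ± 0.30 (adjusted p = 3.86e-05), and changed by -2.04 ± 0.29 (adjusted p = 0.000698) in controls. Cdk1 changed by -2.19 ± 0.26 (adjusted p = 4.98e-05) in IUGR islets and -1.55 ± 0.26 (adjusted p = 0.00146) in controls. Ccnb1 changed by -1.59 ± 0.31 (adjusted p = 0.0012) in IUGR islets and -1.14 ± 0.31 (adjusted p = 0.0169) in controls. Melk, a kinase that is abundant in dividing cells (ENSRNOT00000066277), had 1.89, 1.27 and 1.31 scaled CPM in 10-week IUGR libraries, 1.62, 2.37 and 1.39 in 10-week control libraries, 7.46, 6.78 and 8.6 in 2-week IUGR libraries and 11.8, 8.58 and 7.55 in 2-week control libraries. Its change had the same rounded value in the 2 comparisons, -2.35 ± 0.25 (adjusted p = 2.32e-05) in IUGR islets and -2.35 ± 0.25 (adjusted p = 0.000167) in controls. Ccnb2, the other B-type cyclin (ENSRNOT00000017117), had 1.34, 1.32 and 1.66 scaled CPM in 10-week IUGR libraries, 1.46, 2.87 and 1.64 in 10-week control libraries, 6.75, 5.6 and 6.56 in 2-week IUGR libraries and 6.41, 4.87 and 6.47 in 2-week control libraries, and its ages lay apart. Ccnb2, Foxm1, the transcription factor of mitosis genes, and Plk1, a kinase of mitotic entry, also passed in both groups, with values from -2.13 to -1.42.

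Spindle genes covered both large and small changes. Kif11, the motor that parts the spindle poles (ENSRNOT00000022555), had 4.81, 5.36 and 6.75 scaled CPM in 10-week IUGR libraries, 4.06, 11.4 and 5.26 in 10-week control libraries, 28.9, 24.6 and 28.6 in 2-week IUGR libraries and 20.6, 19.4 and 21.7 in 2-week control libraries. Kif23, a motor of the midzone and of cell cleavage (ENSRNOT00000037028), had 3.42, 4.06 and 3.16 scaled CPM in 10-week IUGR libraries, 2.63, 7.31 and 4.16 in 10-week control libraries, 19.2, 19.2 and 20.5 in 2-week IUGR libraries and 11.8, 13.7 and 13.8 in 2-week control libraries. For both motors the 2-week IUGR libraries lay above the 2-week control libraries as well as above all 10-week libraries. Kif11 changed by -2.28 ± 0.31 (adjusted p = 0.000108) in IUGR islets and -1.56 ± 0.30 (adjusted p = 0.0032) in controls. Kif23 changed by -2.47 ± 0.28 (adjusted p = 3.89e-05) in IUGR islets and -1.47 ± 0.27 (adjusted p = 0.00275) in controls. Prc1, which bundles microtubules of the midzone (ENSRNOT00000017532), had 8.29, 8.84 and 10.5 scaled CPM in 10-week IUGR libraries, 8.02, 11.6 and 7.63 in 10-week control libraries, 43.4, 39.2 and 42 in 2-week IUGR libraries and 26.5, 30.7 and 33.4 in 2-week control libraries. Nusap1, a microtubule binding protein of the spindle (ENSRNOT00000052312), had 4.23, 4.83 and 5.36 scaled CPM in 10-week IUGR libraries, 3.52, 6.75 and 2.81 in 10-week control libraries, 16.3, 14.9 and 18.2 in 2-week IUGR libraries and 16.9, 14.1 and 14 in 2-week control libraries. Neither gene overlapped between the ages. Prc1 changed by -2.17 ± 0.16 (adjusted p = 3.54e-06) in IUGR islets and -1.73 ± 0.16 (adjusted p = 0.000104) in controls. Nusap1 changed by -1.77 ± 0.26 (adjusted p = 0.000182) in IUGR islets and -1.76 ± 0.26 (adjusted p = 0.000794) in controls. Tpx2, which guides spindle assembly, passed in both groups too. The motor Kif20a and the spindle pole kinase Aurka passed with the smallest decreases of the mitosis genes in IUGR islets, -0.86 ± 0.16 (adjusted p = 0.000759) and -0.75 ± 0.17 (adjusted p = 0.00296).

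Among kinetochore and checkpoint genes, Zwint was the exception. Ttk, a kinase of the spindle checkpoint (ENSRNOT00000051612), had 1.75, 1.72 and 2.25 scaled CPM in 10-week IUGR libraries, 1.62, 3.6 and 1.75 in 10-week control libraries, 9.07, 7.84 and 9.2 in 2-week IUGR libraries and 7.76, 7.25 and 7.45 in 2-week control libraries. Cenpf, a protein of the outer kinetochore (ENSRNOT00000004525), had 12, 13 and 13.7 scaled CPM in 10-week IUGR libraries, 10.2, 20.4 and 10.6 in 10-week control libraries, 54.7, 50.3 and 55.3 in 2-week IUGR libraries and 46.3, 48.4 and 49.4 in 2-week control libraries. Both separated the ages fully. Ttk changed by -2.19 ± 0.26 (adjusted p = 5.02e-05) in IUGR islets and -1.67 ± 0.26 (adjusted p = 0.000989) in controls. Cenpf changed by -2.05 ± 0.22 (adjusted p = 2.51e-05) in IUGR islets and -1.80 ± 0.22 (adjusted p = 0.000307) in controls. The checkpoint kinases Bub1 and Bub1b, the microtubule coupler Ndc80 and the kinetochore motor Cenpe also passed in both groups, with values from -2.14 to -1.24. Of the chromosomal passenger complex, Aurkb and Cdca8 passed in both groups, whereas Birc5 passed in IUGR islets, at -2.13 ± 0.50 (adjusted p = 0.00395), and not in controls, at -0.69 ± 0.47 (adjusted p = 0.283). Cdc20 (ENSRNOT00000036151), an activator of the anaphase promoting complex, had 3.06, 3.06 and 3.71 scaled CPM in 10-week IUGR libraries, 2.92, 5.74 and 3.14 in 10-week control libraries, 13.7, 12 and 14.8 in 2-week IUGR libraries and 12.5, 10.5 and 10.8 in 2-week control libraries, and its ages lay apart too. Cdc20 and Ube2c, which act with the anaphase promoting complex, and Cdca3 passed in both groups, with values from -2.04 to -1.50.

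Zwint, which joins the ZW10 protein to the kinetochore and has also been described in rat as a partner of a SNARE protein of exocytosis, took another course (ENSRNOT00000074404). It had 87.7, 84.5 and 82.6 scaled CPM in 10-week IUGR libraries, 28.9, 30.5 and 25.7 in 10-week control libraries, 57.4, 35 and 57.4 in 2-week IUGR libraries and 41.9, 46.3 and 59.3 in 2-week control libraries. The 3 values of 10-week IUGR lay above those of every other group, and the 3 of 10-week control lay below them all. At 10 against 2 weeks it changed by 0.77 ± 0.18 (adjusted p = 0.00416) in IUGR islets and by -0.79 ± 0.18 (adjusted p = 0.00817) in controls. The difference between these age changes, which is also the difference between the IUGR effects at 10 and at 2 weeks, was 1.56 ± 0.26 (adjusted p = 0.00507).

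Among promoters of mitosis genes, the 15 with a CHR match had a median log2 fold change at 10 against 2 weeks of -2.13 in IUGR islets and -1.50 in controls. The 8 without one had medians of -1.77 and -1.36. Of the mitosis genes, 4 had an E2F match and 19 had none. Their medians were -2.23 and -1.96 in IUGR islets and -1.55 and -1.47 in controls. The CCAAT box was present in 18 and absent in 5. Those medians were -2.08 and -1.92 in IUGR islets and -1.52 and -1.47 in controls. In replication genes, 2 with a CHR match had medians of -1.15 in IUGR islets and -1.09 in controls. The 7 without had -1.46 and -0.77. For the E2F site, 6 with a match had -1.48 and -1.09, and 3 without had -0.77 and -0.62. For the CCAAT box, 5 with it had -1.46 and -1.07, and 4 without had -1.08 and -0.86. This is a description of matched promoters, with no test, and Zwint was not among them.

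**Figure D4:**
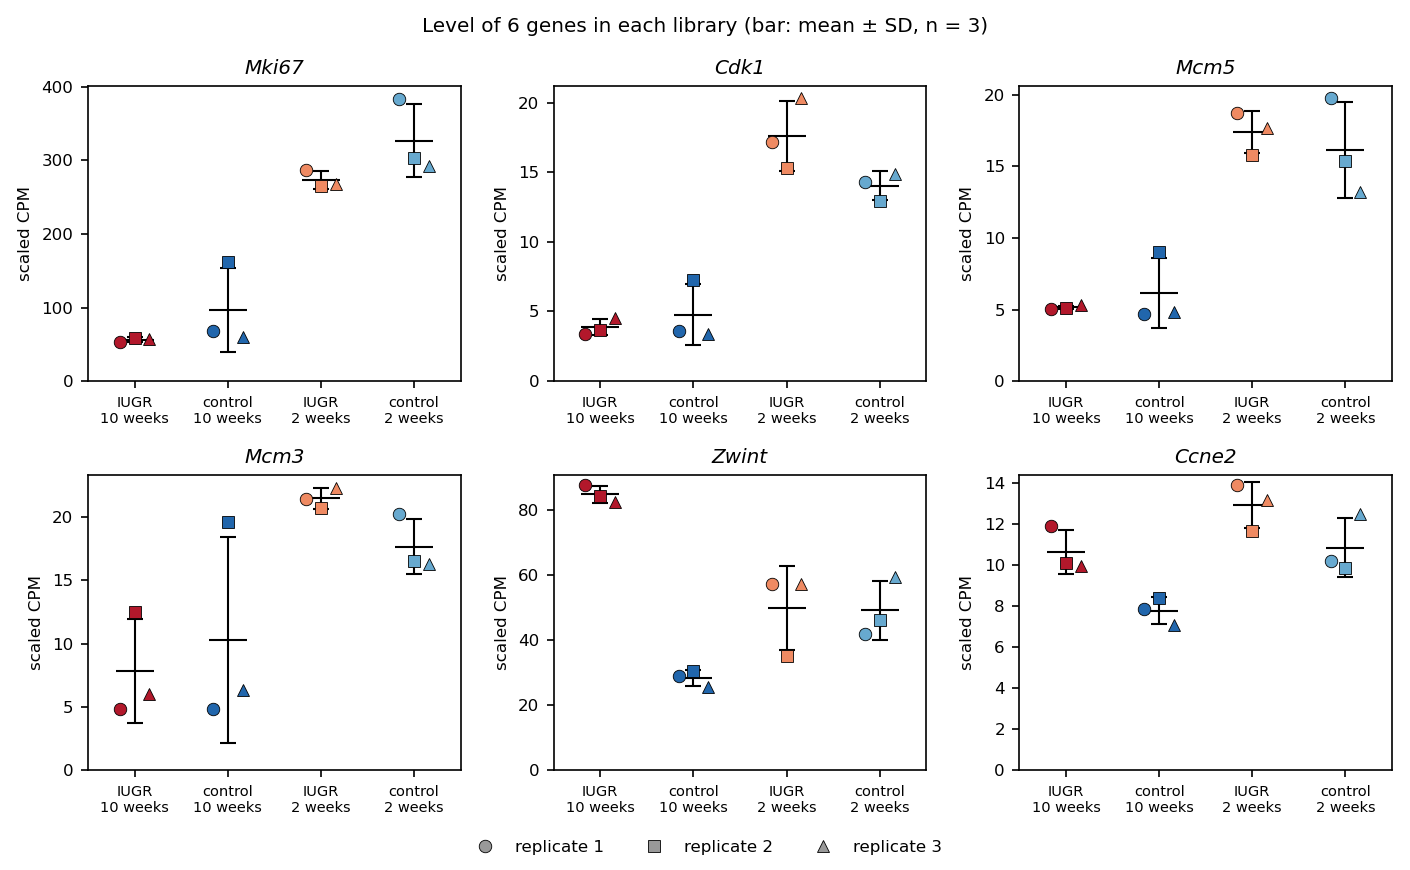
Scaled CPM of Mki67, Cdk1, Mcm5, Mcm3, Zwint and Ccne2 in each library, 1 point per library, with bars for the group mean and SD (n = 3). Zwint is highest at 10 weeks in IUGR (82.6 to 87.7) and lowest at 10 weeks in control (25.7 to 30.5), while Mki67 is low at 10 weeks in both groups.

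IUGR against control at 10 weeks asks how growth retardation before birth is reflected in these genes in adult islets. Only 2 of 44 passed, both as higher in IUGR, and 0 passed as lower. Over all transcripts 12.4% passed as higher and 15.5% as lower. At an unadjusted p under 0.05 there were 7 of 44 genes, beside 41.3% of all transcripts. Zwint was higher in IUGR islets with a log2 fold change of 1.58 ± 0.19 (adjusted p = 0.000861), or 2.99-fold, and Ccne2 with one of 0.45 ± 0.12 (adjusted p = 0.0219), or 1.37-fold, with groups that did not overlap in either gene. Ccne2 did not pass without IUGR replicate 1, at 0.37 (adjusted p = 0.0792), without control replicate 3, at 0.40 (adjusted p = 0.0812), or with only the 10-week libraries in the fit, at 0.43 (adjusted p = 0.0551). A log2 fold change below 0 was found for 37 genes, with class medians of -0.27 for replication and -0.30 for mitosis.

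Mki67 was lower in all 3 IUGR libraries than in any control library, but the difference did not pass, at -0.78 (95% interval -1.45 to -0.11, adjusted p = 0.0783). DESeq2 did call Mki67 as lower, at -0.77 (adjusted p = 0.0416), and also E2f8, at -1.20 (adjusted p = 0.0228), beside the higher Zwint and Ccne2, and it called 32.9% of the transcripts to which it gave an adjusted p. For Mcm2, too, the groups did not overlap, at -0.36 (95% interval -0.72 to -0.01, adjusted p = 0.115). In all, the groups lay apart for 3 genes higher and 2 lower, beside 21.3% and 18.9% of all transcripts. Other genes gave -0.25 (95% interval -0.87 to 0.36, adjusted p = 0.523) for Top2a, -0.32 (95% interval -0.89 to 0.26, adjusted p = 0.388) for Cdk1 and -0.24 (95% interval -0.92 to 0.45, adjusted p = 0.605) for Ccnb1. Among replication genes the values were -0.27 (95% interval -0.79 to 0.25, adjusted p = 0.422) for Mcm5, -0.04 (95% interval -0.32 to 0.23, adjusted p = 0.83) for Pcna and -0.01 (95% interval -0.59 to 0.56, adjusted p = 0.977) for Rrm2.

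The direction at 10 weeks rested on the second control library. Without it 5 genes passed, all higher in IUGR, beside 1780 of 20998 transcripts as higher and 2588 as lower. The class medians were 0.11 for replication and 0.17 for mitosis. The genes that passed were then Zwint at 1.66 (adjusted p = 0.000913), Ccne2 at 0.53 (adjusted p = 0.0297), Ccne1 at 1.10 (adjusted p = 0.0129), Nusap1 at 0.62 (adjusted p = 0.0305) and Cenpf at 0.33 (adjusted p = 0.0279). Mki67 was at -0.16 (adjusted p = 0.433). With that library as the only control, the medians were -0.57 and -0.90, and Ccne2 was at 0.36. Without control replicate 1, 4 genes passed as lower, Mki67, Birc5, Cenpe and Kif23, beside 3553 of 21113 transcripts. Without control replicate 3, 2 did, Mki67 and E2f8, beside 1971 of 21109 transcripts. The fit with a lone control library has no spread within that group, so only its sizes of change are used here. With the acinar level as a covariate 11 genes passed, all lower, beside 1415 of 20733 transcripts as lower and 574 as higher. Acinar shares of the 10-week groups did not overlap, at 0.624% to 2.32% in IUGR and 13.9% to 46.9% in control libraries. Among these controls the second library had the lowest share, against 43% and 46.9% in the others. The part of that library in the covariate fit was not tested. Neither Zwint, at 1.40 (adjusted p = 0.0782), nor Ccne2, at 0.25 (adjusted p = 0.602), passed with the covariate. In the same comparison 32 of 33 acinar, 6 of 8 mesenchymal and 7 of 9 endothelial markers passed as lower in IUGR, 4 of 9 beta cell markers as higher, and 0 of 8 T cell and 0 of 5 B cell markers passed. Their part in the result was not tested.

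**Figure D5:**
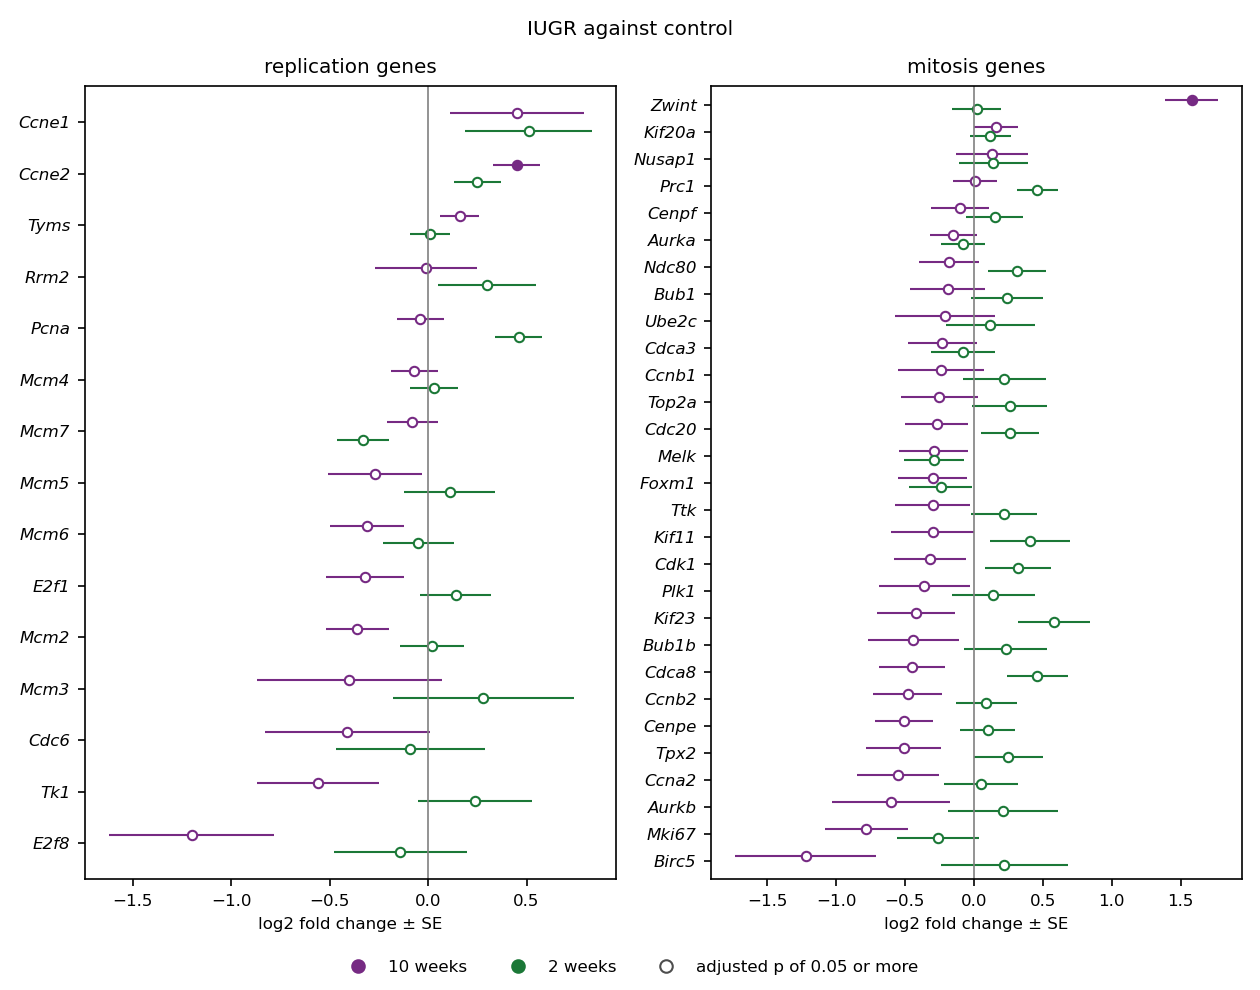
Log2 fold change of each gene in IUGR against control islets, at 10 weeks and at 2 weeks, with its standard error, open points being genes that did not pass. At 10 weeks 37 of 44 values lie below 0 and Zwint stands at 1.58, and at 2 weeks 35 of 44 lie above 0 with no gene past the threshold.

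At 2 weeks, none of the 44 genes passed edgeR's test between IUGR and control islets (0 higher and 0 lower, beside 1.66% and 2.21% of all transcripts, or 3.88% in either direction). At an unadjusted p under 0.05 there were 4 of 44 genes, beside 28.6% of all transcripts. DESeq2 called 2, Pcna and Prc1, both higher in IUGR, beside 15.9% of the transcripts to which it gave an adjusted p. The log2 fold change was above 0 for 35 genes, with class medians of 0.11 for replication and 0.21 for mitosis, and the median of all transcripts was 0.05. The groups lay apart for 15 genes higher in IUGR and 2 lower, beside 21.8% and 16.8% of all transcripts. Pcna came closest to passing, at 0.46 (95% interval 0.19 to 0.73, adjusted p = 0.0587), with all IUGR libraries above all control libraries. Prc1 followed, at 0.46 (95% interval 0.12 to 0.80, adjusted p = 0.0946), with groups that also lay apart. Mki67 was at -0.26 (95% interval -0.93 to 0.40, adjusted p = 0.592) and Top2a at 0.26 (95% interval -0.35 to 0.86, adjusted p = 0.561). For Zwint the groups overlapped, at 0.02 (95% interval -0.38 to 0.42, adjusted p = 0.951). With the acinar level as a covariate 0 genes passed, beside 0 of 20733 transcripts, and the class medians were -0.27 and -0.41. Here 4 of 33 acinar markers passed as lower in IUGR and 1 of 8 mesenchymal markers as higher.

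The difference between the IUGR effects at 10 and at 2 weeks passed for 1 of 44 genes, Zwint, beside 14.3% of all transcripts in either direction. It was below 0 for 38 of 44 genes, with class medians of -0.31 for replication and -0.51 for mitosis. Without the second 10-week control library these medians were 0.08 and 0.10, and Zwint still passed, at 1.68 (adjusted p = 0.00698). With the acinar level as a covariate 19 genes passed, 18 of them lower, beside 3010 of 20733 transcripts as lower and 1775 as higher. Zwint was then at 1.47 (adjusted p = 0.0144). The part of the second 10-week control library in this covariate fit was not tested.

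Other genes of the same steps, taken from lists of known cell cycle genes, were also mostly lower at 10 weeks. These lists were chosen with earlier results of these data known, so they are no separate support. Of 61 other replication genes, 45 passed as lower and 6 as higher at 10 against 2 weeks in IUGR islets, and 44 as lower and 0 as higher in controls. Of 73 other mitosis genes, 71 passed as lower in IUGR islets and 63 in controls, and 0 as higher in both. Over all transcripts, 29.2% passed as lower and 27.3% as higher in IUGR islets, and 15.1% and 17.2% in controls. Among the other mitosis genes, the largest decreases in IUGR islets were those of Fam64a, -3.95 ± 0.28 (adjusted p = 3.28e-06), Depdc1b, -2.89 ± 0.58 (adjusted p = 0.00153), and Psrc1, -2.80 ± 0.27 (adjusted p = 1.5e-05). Their 10-week IUGR levels were low, so the sizes rest on few counts. Fam64a had 0.306, 0.299 and 0.445 scaled CPM there, Depdc1b 0.362, 0.224 and 0.395, and Psrc1 0.223, 0.249 and 0.272. Among the other replication genes, the largest decreases in IUGR islets were those of Gins1, a part of the replicative helicase, -2.39 ± 0.26 (adjusted p = 2.7e-05), Uhrf1, which keeps DNA methylation through replication, -2.38 ± 0.38 (adjusted p = 0.000361), and E2f7, a repressor akin to E2f8, -2.32 ± 0.25 (adjusted p = 2.63e-05). The genes that passed as higher included Orc4, 0.60 ± 0.09 (adjusted p = 0.000167), Gins3, 0.58 ± 0.16 (adjusted p = 0.0098), and Orc2, 0.46 ± 0.08 (adjusted p = 0.00075), the Orc genes being parts of the origin recognition complex.

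In control islets the largest decreases with age were those of Fam64a, -2.29 ± 0.27 (adjusted p = 0.000292), Troap, -2.19 ± 0.30 (adjusted p = 0.000535), and Mybl2, an activator of mitosis genes, -2.11 ± 0.41 (adjusted p = 0.00355). Among replication genes they were E2f7, -2.12 ± 0.25 (adjusted p = 0.000282), Exo1, a nuclease of repair, -1.98 ± 0.40 (adjusted p = 0.00391), and Timeless, a protein of the fork, -1.98 ± 0.15 (adjusted p = 6.07e-05).

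Of 12 genes on a list of DREAM, RB family and E2F genes, 3 passed as higher and 4 as lower at 10 against 2 weeks in IUGR islets. In controls 1 passed as higher and 2 as lower. These counts lie near or below the shares of all transcripts given above for the same comparisons (in IUGR islets 27.3% higher and 29.2% lower, in controls 17.2% and 15.1%), so the genes are given as values of single genes. The repressor E2f6, which belongs to neither the DREAM complex nor the RB family, passed as higher in both, 0.73 ± 0.12 (adjusted p = 0.000343) in IUGR islets and 0.56 ± 0.12 (adjusted p = 0.00498) in controls. The DREAM subunit Lin9 passed as lower in both, -0.65 ± 0.12 (adjusted p = 0.000922) in IUGR islets and -0.91 ± 0.12 (adjusted p = 0.000501) in controls. So did Rbl1, the RB family protein p107, with -0.52 ± 0.11 (adjusted p = 0.0016) in IUGR islets and -0.46 ± 0.11 (adjusted p = 0.00805) in controls. In IUGR islets Lin37 and Lin52 were higher, 0.93 ± 0.14 (adjusted p = 0.00027) and 0.78 ± 0.18 (adjusted p = 0.00359), and Tfdp2 was lower, -0.57 ± 0.16 (adjusted p = 0.0103).

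For IUGR against control at 10 weeks, 7 of 61 other replication genes passed as higher and 7 as lower, counts that stand beside 12.4% and 15.5% of all transcripts and are no larger a share than those. The higher ones included Orc6, 0.65 ± 0.12 (adjusted p = 0.00446), Gins3, 0.63 ± 0.16 (adjusted p = 0.0165), and Dut, which keeps uracil out of DNA, 0.47 ± 0.09 (adjusted p = 0.00466). The lower ones included the DNA polymerase subunits Pola2, -0.97 ± 0.22 (adjusted p = 0.0103), and Pold2, -0.83 ± 0.15 (adjusted p = 0.00407). Of 73 other mitosis genes, Pbk passed as higher, 0.74 ± 0.22 (adjusted p = 0.0285), and Shcbp1, -2.21 ± 0.31 (adjusted p = 0.00155), Nek2, -1.24 ± 0.31 (adjusted p = 0.0144), and Kif18b, -0.97 ± 0.32 (adjusted p = 0.043), as lower. Shcbp1 had 1.14, 1.79 and 1.46 scaled CPM in 10-week IUGR libraries, against 5.39, 4.56 and 10.6 in 10-week control libraries. E2f6 was the only gene to pass on the list of 12 DREAM, RB family and E2F genes, 0.36 ± 0.12 (adjusted p = 0.0426). At 2 weeks Fam64a passed as higher, 1.05 ± 0.24 (adjusted p = 0.0458), with 5.94, 4.94 and 5.56 scaled CPM in 2-week IUGR libraries, against 1.8, 3.05 and 3.06 in 2-week control libraries, and 0 of the others passed.

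Markers of other cells also changed with age. All 9 beta cell markers passed as higher at 10 against 2 weeks in both groups. All 8 mesenchymal markers passed as lower in IUGR islets and 6 of 8 in controls, their sum being 319 to 406 scaled CPM in 10-week IUGR libraries, 790 to 1660 in 10-week control libraries, 9060 to 10600 in 2-week IUGR libraries and 4370 to 7730 in 2-week control libraries. Of 8 erythroid markers 7 passed as lower in each group, with sums of 64 to 152 in 10-week IUGR, 205 to 358 in 10-week control, 807 to 1110 in 2-week IUGR and 596 to 925 in 2-week control libraries. Endothelial markers passed as lower for 8 of 9 genes in IUGR islets and 1 of 9 in controls, where 1 also passed as higher. Their sums were 337 to 450 in 10-week IUGR, 527 to 899 in 10-week control, 807 to 960 in 2-week IUGR and 461 to 730 in 2-week control libraries. All 4 alpha cell markers passed as lower in both groups, with sums of 5880 to 14300 in 10-week IUGR, 4930 to 8660 in 10-week control, 18600 to 33800 in 2-week IUGR and 11400 to 25300 in 2-week control libraries. The direction differed between the groups for acinar markers, of which 21 of 33 passed as lower in IUGR islets and 5 as higher in controls, with the shares of counts given above. All 4 Schwann cell markers passed as lower in IUGR islets and 0 passed in controls, with sums of 4.94 to 5.85 in 10-week IUGR, 8.29 to 22.8 in 10-week control, 33.5 to 41.1 in 2-week IUGR and 13.8 to 29.1 in 2-week control libraries. Of 8 macrophage markers 2 passed as lower in IUGR islets and 3 as higher in controls, with sums of 52.1 to 79.4 in 10-week IUGR, 60 to 150 in 10-week control, 74.2 to 104 in 2-week IUGR and 39.8 to 77.9 in 2-week control libraries. Of 7 ductal markers 1 passed as higher and 1 as lower in IUGR islets and 2 as lower in controls, and of 2 delta cell markers 1 passed as lower in IUGR islets and 0 in controls. None of 5 B cell markers passed in either group, and of 8 T cell markers 0 passed in IUGR islets and 2 as higher in controls. Of the lists other than acinar and T cell no marker was at 0 counts in any library, and the acinar marker Klk1, which was too low to be tested, was at 0 in 4 libraries, 1 of each group. B cell sums were 10.1 to 40.4 in 10-week IUGR, 2 to 59.3 in 10-week control, 2.87 to 2.98 in 2-week IUGR and 0.944 to 7.7 in 2-week control libraries. The T cell markers Cd2 and Cd3e were at 0 in the first 2-week control library. The part of these cells in the changes of S phase and mitosis genes was not tested.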

How the data were processed

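Raw counts per rat transcript were deposited by the authors as whole numbers with no normalization, in 1 table for the 12 libraries. Stranded libraries came from total RNA (integrity number above 7) after removal of ribosomal RNA, per the labels' protocols. TopHat2 2.0.9, bedtools and the builds rn5 and mm9 are named, with no roles, per the submitters' processing notes. How reads were counted, with which strand setting and annotation, is not given in the sources used here, so overlapping or antisense genes may share reads. No positions on rn5 were used.

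Low counts were filtered (filterByExpr) and libraries scaled (TMM) with edgeR 4.0.16 under R 4.3.3, and all 4 groups entered a single robust quasi-likelihood fit. Benjamini-Hochberg adjustment ran over the 20733 transcripts tested, with 0.05 as the threshold for passing. The standard error of a log2 fold change was its size divided by the root of the F statistic, and 95% intervals used the t distribution of the fit. The 5 comparisons set IUGR against control at 10 and at 2 weeks, tested how these effects differ, and set 10 against 2 weeks within IUGR and within control. The scripts were tested on simulated data.

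The 44 genes and all other lists were chosen with earlier results of these data known. Values per library were given for genes that passed, at most 6 in each direction per class by size of log2 fold change, and for 9 genes whether or not they passed (Mki67, Top2a, Ccnb1, Cdk1, Pcna, Mcm2, Mcm5, Rrm2 and Zwint). From each list of other genes, the 3 largest changes in each direction among those that passed were named. A gene that this rule takes is not reported here. Lists of other genes held 62 replication genes (61 found), 76 mitosis genes (73 found) and 13 DREAM, RB family and E2F genes (12 found). Promoters came from RefSeq on GRCr8 and were matched by symbol. Alternatives included DESeq2 1.42.0, RLE factors, no filter, the replicate number as a block, the acinar level as a covariate and each library left out.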

Additional observations from a re-analysis of the deposited data

Results flagged for a closer look

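Effects of IUGR that differed between 10 and 2 weeks, by the test of the difference in the edgeR fit, are given for Zwint and for 5 genes of the other lists. Groups of 3 libraries are too small for a test of single outlying samples. For Zwint the difference was 1.56 on the log2 scale (adjusted p = 0.00507). The IUGR effect was 1.58 at 10 weeks and 0.02 at 2 weeks, and the 3 IUGR libraries lay above the 3 control libraries at 10 weeks and overlapped with them at 2 weeks. Lower at 10 than at 2 weeks were the effects on Shcbp1, by -2.04 (adjusted p = 0.0105), Fam64a, by -1.67 (adjusted p = 0.0175), and Anln, by -0.70 (adjusted p = 0.0459). For Fam64a the 10-week levels were low, at 0.299 to 0.445 scaled CPM in IUGR and 0.38 to 0.657 in control libraries. Higher at 10 than at 2 weeks were the effects on Orc2, by 0.59 (adjusted p = 0.00872), and Dut, by 0.50 (adjusted p = 0.0233). Of the other lists, 61 replication and 73 mitosis genes were tested, and over all transcripts 3.97% passed as higher and 10.4% as lower in this difference.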

How the results depend on the processing

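Over the planned settings, 42 to 44 of the 44 genes passed at 10 against 2 weeks in IUGR islets and 34 to 40 in controls. Fits that left out 1 library, or both 10-week control libraries with the largest acinar share, are not in these ranges. Leaving out each library in turn gave 41 to 42 in IUGR islets and 37 to 44 in controls. The same gave 1 to 6 genes for IUGR against control at 10 weeks, 0 to 1 at 2 weeks and 1 to 3 for the difference between the IUGR effects. At 10 weeks, 5 genes passed without control replicate 2 (all higher), 6 without control replicate 1 (2 higher, 4 lower), 3 without control replicate 3 (1 higher, 2 lower) and 1 without IUGR replicate 1 (higher). Ccne2 was lost without control replicate 3 or IUGR replicate 1. For the difference, 3 passed without 10-week control replicate 1 or 3 and 2 without 10-week IUGR replicate 2, and at 2 weeks 1 passed without control replicate 3. DESeq2 called 4 genes at 10 weeks (2 higher, 2 lower), 2 at 2 weeks (both higher) and 3 for the difference (1 higher, 2 lower), beside 32.9%, 15.9% and 21% of the transcripts with an adjusted p. An adjusted p under 0.1 gave 6 (2 higher, 4 lower), 2 (both higher) and 3 (1 higher, 2 lower), beside 38.1%, 14.6% and 22.8% of all transcripts. The acinar level as a covariate gave 11 (all lower), 0 and 19 (1 higher, 18 lower). Leaving out both 10-week control libraries with the largest acinar share gave 27 genes at 10 weeks (1 higher) and 30 for the difference (1 higher). That fit is the one with control replicate 2 as the only 10-week control library. It has no spread within that group, so no result rests on these counts. Its class medians at 10 weeks were -0.57 for replication and -0.90 for mitosis, and for the difference -0.73 and -1.12. With only the libraries of the comparison 1 gene passed at 10 weeks, Zwint, and without the acinar list and the 20 most abundant transcripts 1 passed at 2 weeks. Past the threshold, signs turned for 2 genes at 10 weeks, Prc1 at -0.92 (adjusted p = 0.0306) with the covariate and Cenpf at 0.33 (adjusted p = 0.0279) without control replicate 2 (-0.24 to 0.33 over the libraries left out), and the cause was not tested. After seeing the data, replicate 2 was left out of both 10-week groups, which gave 3 genes at 10 weeks, all higher, 1 for the difference, 43 in IUGR and 44 in controls with age. Across the alternatives Zwint kept a positive value at 10 weeks. It is not known whether the replicate numbers pair the libraries. Same-numbered deviations correlated from -0.14 to 0.48. Between the control groups of the 2 ages the correlations were 0.39, 0.48 and 0.00 for replicates 1, 2 and 3. With the replicate block 42 genes passed with age in IUGR, 40 in controls, 2 at 10 weeks, 0 at 2 weeks and 1 for the difference. Over all transcripts, 804 passed at 2 weeks, against 149 with no filter, 3166 by DESeq2, 1223 with the block, 3021 at an adjusted p under 0.1, and 0 with the covariate or with only the libraries of the comparison. That count was between 0 and 2350 as each 2-week library was left out. At 10 weeks 5776 passed, against 1989 with the covariate and 3472 with only the libraries of the comparison. For the difference 2973 passed, against 4785 with the covariate and 4735 at an adjusted p under 0.1, and with age in controls 6693, against 3448 with only the libraries of the comparison. For E2f8, with as few as 9 counts in a library, depth limits the precision. The same holds for Fam64a, Depdc1b and Psrc1, which were low in 10-week IUGR libraries.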
